A study of Macaca mulatta and Mus musculus with 5 samples.

Results

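The genes described here are the 6 cytotoxic granule genes NKG7, PRF1, GZMA, GZMB, GZMK and CST7. They were taken by symbol, 6 of the 14949 genes listed in the macaque tables and 6 of the 31017 in the mouse table. All 6 were found in both species, and in macaque all 6 passed the low-count filter of every comparison given below. The data were droplet single-cell 3′-end RNA libraries: 2 channels from meninges and 2 from spleen of female Chinese rhesus macaques aged 4 to 8 years, and 1 library from meninges of male C57BL/6 mice aged 2, 21 and 48 days. The mice were labelled by hashtag antibodies and pooled, and since the table carries no hashtag map the 3 ages were read as 1 sample. The design text writes the sort as CD45–CD11b–CD3– in macaque, with 8000 cells loaded per channel, and as CD45–CD11b– in mouse, with 30000. Whether a dash marks depletion or selection cannot be read from that text. No allele, transgene or treatment is named for any group. The labels do not say whether 2 channels came from different animals, so each p-value below measures the spread between channels, which may be technical.

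Cytotoxic lymphocytes kill target cells by releasing the content of secretory granules. Perforin, the product of PRF1, opens pores in the target membrane, and granzymes, which are serine proteases, enter and cleave proteins of the target. Granzyme B cuts after acidic residues and activates caspases, whereas granzymes A and K are tryptases that cut after basic residues. NKG7 is a granule membrane protein needed for efficient degranulation, and CST7 encodes cystatin F, an inhibitor of the cathepsins that process granule proteases. In human blood GZMB and PRF1 are typical of mature killer cells, and GZMK of less differentiated ones. In mouse, Gzma and Gzmk lie on the same strand of chromosome 13 in GRCm38, at chr13:113093825-113100981 and chr13:113171608-113225908 (GENCODE M21, both protein-coding, minus strand). The other members lie apart: Gzmb at chr14:56258838-56262260, Prf1 at chr10:61297833-61304680, Nkg7 at chr7:43437073-43438249 and Cst7 at chr2:150570415-150578944. In the RefSeq macaque assembly GZMA and GZMK are also next to each other, and GZMB is next to GZMH, a close paralog. GZMH is not listed in the macaque tables, and no source used here says how reads shared by GZMB and GZMH were counted.

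The macaque tables held 4073 and 4313 barcodes in meninges (19018146 and 19763332 UMIs) and 5840 and 6786 in spleen (20110117 and 21992144 UMIs). The mouse table held 13947 barcodes and 128091376 UMIs. Any pair of libraries shared between 4 and 28 barcodes. Channels of one tissue differed by more than sampling noise (chi-square per degree of freedom of 1.95 in meninges and 1.81 in spleen), so they were not taken for one library deposited again. Cells drawn anew from one suspension would also differ in this way, and whether channels are separate animals was not tested. Cells were clustered without the 6 members and without the CD3 genes, and clusters were named from marker lists.

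Natural killer (NK)-like cells in macaque fell into 3 clusters. Cluster 9, led by CCL5, KLRD1 and CX3CR1, held 648 and 645 cells in the meningeal channels and 96 and 167 in the splenic ones. It scored 1.23 for NK markers and 0.87 for T markers. Cluster 3, led by EOMES, IL2RB and NCR1, held 267 and 325 meningeal and 374 and 418 splenic cells, with a median of 841 and 861 UMIs per cell in meninges and 1276 and 1643 in spleen. Cluster 2, led by XCL1, CRTAM and KLRB1, held 565 and 573 cells in meninges and 0 in spleen, and its score for innate lymphoid markers (0.77) came close to that for NK markers (1.01). T-like cluster 8, led by IL7R and TRAC, held 163 and 176 meningeal and 24 and 45 splenic cells. Together these 4 clusters are called NK/T-like cells. There were 1643 and 1719 of them in the meningeal channels and 494 and 630 in the splenic ones, and their median depth was 3697 and 3694 UMIs per meningeal cell and 1907 and 1796 UMIs per splenic cell. A macaque cluster with innate lymphoid markers (KIT, IL1RL1) separated only at the finer Leiden resolution of 2, with 46 and 56 meningeal cells. The sort label writes CD3 with a dash, and a CD3E UMI was found in 57.3% and 56.4% of meningeal and 32.2% and 37.5% of splenic NK/T-like cells. In cluster 9 it was 63.9% and 66.0% of meningeal and 47.9% and 41.3% of splenic cells. In cluster 3 it was 29.2% and 30.2% of meningeal and 26.5% and 35.6% of splenic cells. Thinned to 1000 UMIs per cell, the shares with CD3E over NK/T-like cells were 31.6% and 28.7% in meninges and 21.4% and 26.7% in spleen, against at most 0.355% in mature B-like cells. In meninges the thinned mean was 29.8% in NK-like and 32.7% in T-like cells. The NK-like name thus rests on marker scores, and these clusters may hold T cells.

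All 6 genes were high in NK/T-like cells and near the floor in B cells. Levels are CPM, the UMIs of a gene summed over the cells of a class in a channel and scaled to the total UMIs of those cells. They are 3′-end counts without length scaling, so they compare cells and not genes, and a difference in a sum can come from more cells with the transcript or from more transcripts per cell. In mature B-like cells, the background, no member passed 30.3 CPM in any channel. GZMB had 19.0 and 30.3 CPM there in meninges and 13.8 and 8.03 CPM in spleen, and NKG7 had 11.1 and 16.8 CPM in meninges and 9.90 and 5.01 CPM in spleen. At 1000 UMIs per cell the share of mature B-like cells with a GZMB UMI was 1.13% and 2.01% in meninges and 1.02% and 0.746% in spleen. No other member exceeded 1.06% in those cells.

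GZMB, which encodes the caspase-activating granzyme, was graded over the macaque clusters. It reached 6275 and 6279 CPM in meninges and 5984 and 6113 CPM in spleen in cluster 9. In cluster 3 it had 2624 and 2737 CPM in meninges and 2532 and 2258 CPM in spleen, and in meningeal cluster 2 it had 1555 and 1663 CPM. T-like cells were lower, with 959 and 1078 CPM in meninges and 536 and 392 CPM in spleen. Within cluster 9 nearly every cell carried the transcript: 99.2% and 98.6% of meningeal and 97.9% and 98.7% of splenic cells after thinning to 1000 UMIs. In meningeal cluster 2 it was 55.6% and 55.9% of cells.

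GZMK had another order. It was highest in meningeal cluster 2, with 1365 and 1332 CPM, and lowest among NK-like cells in cluster 9, with 250 and 271 CPM in meninges and 124 and 147 CPM in spleen. Cluster 3 lay between them, with 1135 and 1092 CPM in meninges and 663 and 466 CPM in spleen. In T-like cells GZMK had 415 and 547 CPM in meninges and 402 and 200 CPM in spleen. Clusters 9 and 2 of the same meningeal channels thus stood in opposite order for GZMB and GZMK.

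The pore-forming PRF1 and the granule membrane protein NKG7 both followed the GZMB order among NK-like cells. PRF1 had 765 and 718 CPM in meninges and 1111 and 1052 CPM in spleen in cluster 9, against 232 and 241 CPM in meningeal cluster 2. NKG7 had 2980 and 3187 CPM in meninges and 3058 and 3568 CPM in spleen in cluster 9, and 995 and 902 CPM in meningeal cluster 2. T-like cells were close to cluster 2 for both genes, with 258 and 299 CPM of PRF1 and 966 and 993 CPM of NKG7 in meninges. GZMA, a tryptase, separated T-like cells from the NK-like clusters. It had 68.7 and 99.8 CPM in meningeal and 12.2 and 30.8 CPM in splenic T-like cells, whereas meningeal cluster 2 had 405 and 448 CPM and cluster 9 had 1191 and 1333 CPM in meninges and 1135 and 1290 CPM in spleen. CST7, the cathepsin inhibitor, had 88.1 and 77.3 CPM in meningeal T-like cells, 153 and 146 CPM in meningeal cluster 2 and 269 and 273 CPM in meningeal cluster 9. These class levels are a description, without a test between clusters.

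**Figure D1:**
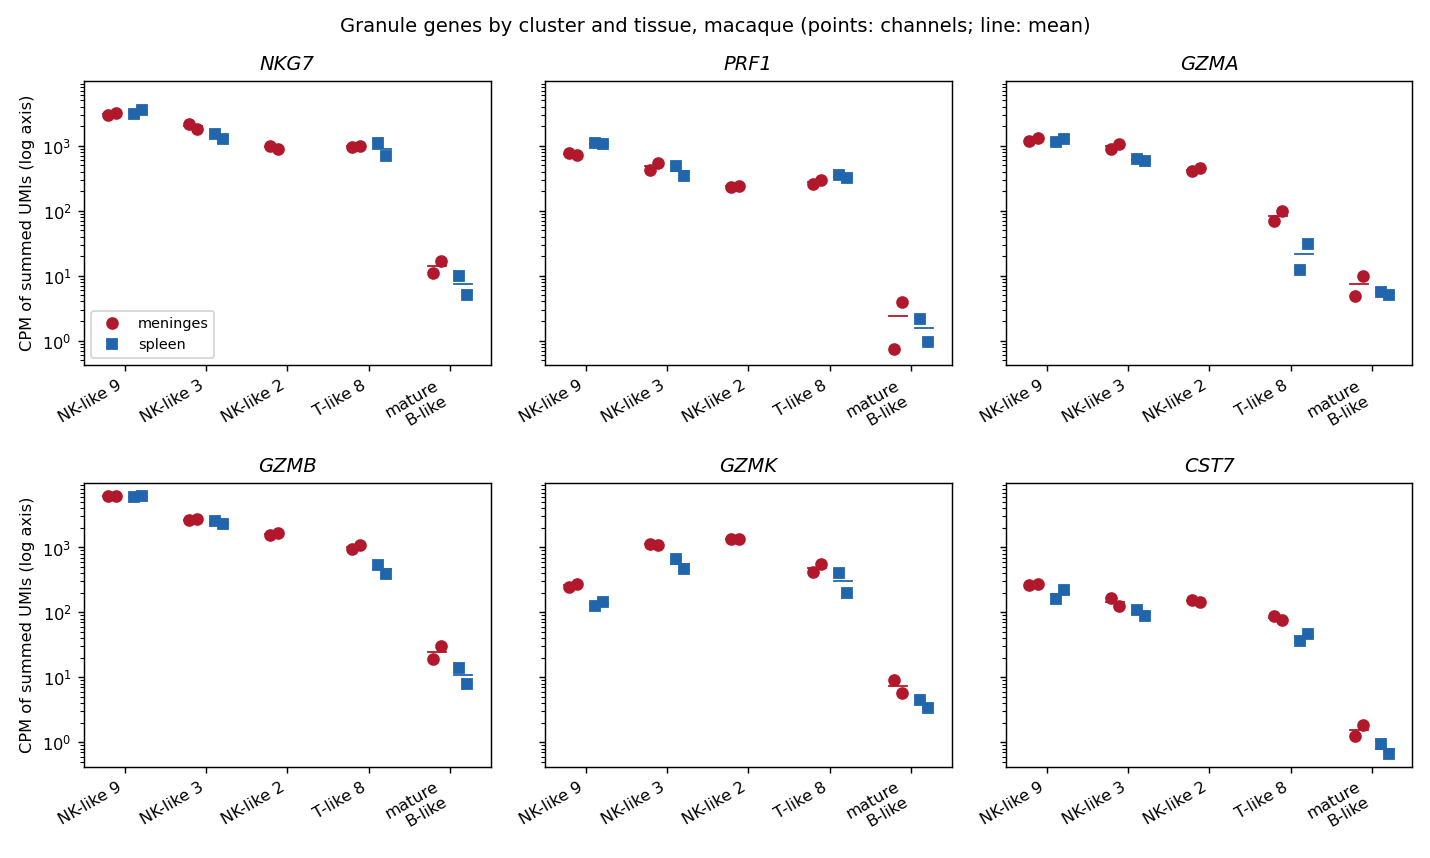
CPM of summed UMIs (log axis) for the 6 granule genes in 3 NK-like clusters, T-like cells and mature B-like cells of macaque; points are channels (meninges left in red, spleen right in blue) and short lines their means. GZMB is highest in cluster 9 and GZMK in cluster 2, and every gene is far lower in mature B-like cells.

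In the macaque innate lymphoid-like cells no member passed 44.3 CPM. Over 46 and 56 meningeal cells NKG7 had 6.82 and 23.5 CPM, GZMB 10.2 and 44.3 CPM, and PRF1 17.0 and 23.5 CPM. GZMK was at 0 in the first channel and at 20.9 CPM in the second. CST7 had 17.0 and 18.3 CPM and GZMA 3.41 and 0 CPM. In meningeal mature B-like cells PRF1 had 0.742 and 3.96 CPM and CST7 1.24 and 1.86 CPM, below the innate lymphoid-like cells in each channel. The other 4 members were not above mature B-like cells in both channels. NKG7, GZMB and GZMK were lower than there in the first channel and higher in the second, and GZMA was lower in both. These levels rest on few UMIs in 46 and 56 cells and were not tested.

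Between tissues, GZMK and CST7 differed most. Over all NK/T-like cells GZMK had 766 and 786 CPM in meninges, against 523 and 359 CPM in spleen. Both meningeal channels were above both splenic ones, with a log2 fold change of 1.09 (SE 0.109, adjusted p = 1.04e-06). CST7 had 196 and 189 CPM in meninges, against 115 and 118 CPM in spleen, also without overlap (log2 fold change 0.99, SE 0.094, adjusted p = 5.43e-07). The other granzymes and NKG7 rose by less. GZMB had 3589 and 3591 CPM in meninges and 3158 and 3054 CPM in spleen (0.48, SE 0.081, adjusted p = 0.000274). GZMA had 740 and 827 CPM in meninges and 691 and 702 CPM in spleen (0.44, SE 0.083, adjusted p = 0.00072). NKG7 had 1924 and 1932 CPM in meninges and 1830 and 1792 CPM in spleen (0.36, SE 0.078, adjusted p = 0.00203). PRF1 had 477 and 469 CPM in meninges and 613 and 518 CPM in spleen, and its fitted difference of 0.015 (SE 0.080) did not pass the test (adjusted p = 0.908). All adjusted p-values come from the quasi-likelihood test of edgeR, with the Benjamini-Hochberg method over all genes tested. So 5 of the 6 members were called, where 34.4% of the 9613 genes tested were called 19.5% as higher and 14.9% as lower. The 3 NK-like clusters without T-like cells gave the same 5 calls, where 34.5% of genes were called, 19.7% as higher and 14.8% as lower. At Leiden resolution 0.5, where the XCL1-led cells fall in a cluster named T-like, the NK-like cells gave a GZMK difference of -0.001 (adjusted p = 0.994) and PRF1 was called higher in meninges (0.40, adjusted p = 0.00115). The members' median log2 fold change was 0.456, beside -0.012 over all genes.

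The fitted folds exceed the ratios of the CPM because TMM scaling, the main choice, moves the centre of all genes. Scaling by library size alone shifted the median of all genes to -0.277 and the share of calls that were higher to 26.4%, against 56.6% with TMM. On that scale GZMK (0.83, adjusted p = 3.78e-05), CST7 (0.72, adjusted p = 2.5e-05) and GZMB (0.21, adjusted p = 0.012) still passed as higher in meninges. GZMA (0.17, adjusted p = 0.0748) and NKG7 (0.09, adjusted p = 0.25) did not pass, and PRF1 was called lower in meninges (-0.25, adjusted p = 0.0183). Leaving out the first meningeal channel ended the call of NKG7 (0.37, adjusted p = 0.0666), and leaving out the second ended those of NKG7 (0.35, adjusted p = 0.0872) and GZMA (0.35, adjusted p = 0.073).

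The tissue difference of GZMK passed within clusters 9 and 3 but not over the sum of cells without cluster 2. T-like cluster 8, with under 50 cells in each splenic channel, was not fitted alone. Cluster 9 alone gave a log2 fold change of 1.08 (SE 0.157, adjusted p = 6.9e-09) and cluster 3 alone 0.93 (SE 0.141, adjusted p = 1.7e-07). With cluster 2 left out, the sum of the remaining cells gave 0.046 (SE 0.114, adjusted p = 0.812), a set in which GZMK-low cluster 9 held most meningeal cells and cluster 3 most splenic cells. PRF1 depended on the cluster too: it was lower in meninges within cluster 9 (-0.38, SE 0.079, adjusted p = 8.78e-05), did not pass within cluster 3 (0.19, adjusted p = 0.522) and was higher without cluster 2 (0.29, adjusted p = 0.0147). GZMB was higher in meninges within cluster 9 (0.21, adjusted p = 0.00076) and did not pass within cluster 3 (0.11, adjusted p = 0.743), and CST7 likewise passed in cluster 9 (0.63, adjusted p = 0.000363) and not in cluster 3 (0.49, adjusted p = 0.12). GZMA passed in both (0.21, adjusted p = 0.0395 in cluster 9; 0.68, adjusted p = 0.000164 in cluster 3), and NKG7 in cluster 3 only (0.46, adjusted p = 0.0223, against 0.05, adjusted p = 0.645, in cluster 9), the difference between the clusters itself not being tested. Over all genes, cluster 9 alone called 14.4% of 8029, cluster 3 alone 8.78% of 6871 and the fit without cluster 2 27.6% of 9110. These cluster fits were chosen after seeing the data.

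**Figure D2:**
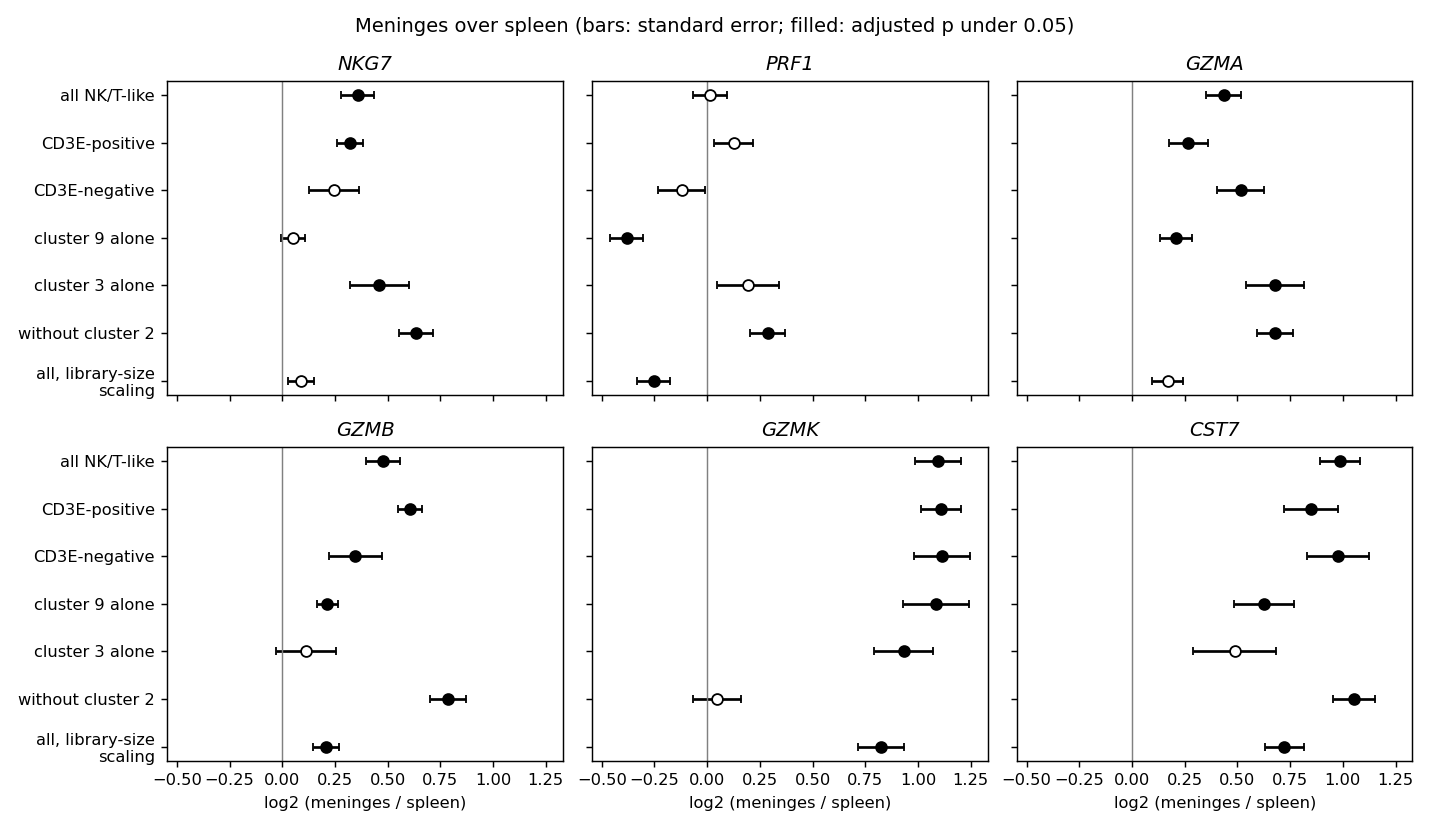
Log2 fold change of meninges over spleen for each granule gene (x axis) in 7 fits (rows); bars are standard errors and filled points have an adjusted p under 0.05. GZMK stays near 1 in single clusters and falls to 0.046 without cluster 2, and PRF1 changes sign between fits.

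Shares of cells with a member UMI, taken at 1000 UMIs per cell, gave the same order for GZMK and CST7. GZMK was found in 34.3% and 35.8% of meningeal and 28.9% and 24.65% of splenic NK/T-like cells, and CST7 in 19.5% and 16.8% of meningeal and 12.8% and 11.9% of splenic ones. PRF1 went the other way, at 33.8% and 33.7% of meningeal and 44.35% and 39.0% of splenic cells. GZMB was found in 72.5% and 72.7% of meningeal cells, against 79.5% and 76.6% of splenic ones. For these 4 of the 6 genes the tissues did not overlap, and for NKG7 and GZMA they did. Of the 9613 genes tested, 59.5% did not overlap (19.2% higher and 40.4% lower in meninges), so the count of 4 is near the background. With 2 channels against 2, an exact two-sided permutation test cannot go below 0.33, the value all 4 reached, so none of these shares passes a test. Thinning left out 179 and 212 meningeal and 158 and 135 splenic cells with fewer UMIs. Meningeal cluster 3, with medians of 841 and 861 UMIs, lost most of its cells. The shares, and the co-detection below, thus cover another mix of clusters than the CPM. The share of GZMB goes against its CPM, and no order is read from it. Within cluster 9 PRF1 was found in 50.5% and 47.4% of meningeal and 68.8% and 62.7% of splenic cells, the same direction as its level there.

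The tissues also differed in B-cell transcripts and in early response genes within the NK/T-like cells. MS4A1 had 40.6 and 35.3 CPM in meninges, against 273 and 319 CPM in spleen, and all 12 of the mature B markers were detected in each channel, with a sum of 103 CPM in both meningeal channels and 711 and 847 CPM in the splenic ones. Of the immediate early and dissociation genes, 11 of 11 tested rose in meninges, with FOS at a log2 fold change of 5.26 and a list median of 3.01, beside -0.012 over all genes. The part of these genes in the member differences was not tested.

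Split by CD3E, GZMK was higher in meninges in both states. Among CD3E-positive cells GZMK had 733 and 753 CPM in meninges and 453 and 342 CPM in spleen (1.11, SE 0.096, adjusted p = 4.81e-08). Among CD3E-negative cells it had 817 and 838 CPM in meninges and 570 and 373 CPM in spleen (1.11, SE 0.133, adjusted p = 2.73e-07). CST7 rose by 0.85 in CD3E-positive (SE 0.129, adjusted p = 7.1e-05) and 0.98 in CD3E-negative cells (SE 0.147, adjusted p = 1.08e-05). For CST7 the call ended in CD3E-positive cells of cluster 9 alone (0.49, adjusted p = 0.171) and cluster 3 alone (0.77, adjusted p = 0.137), and in CD3E-negative cells of cluster 3 alone (0.15, adjusted p = 0.793). GZMB rose by 0.61 in CD3E-positive (SE 0.057, adjusted p = 1.45e-07) and 0.35 in CD3E-negative cells (SE 0.126, adjusted p = 0.0432). In the CD3E-negative cells the GZMB call ended without either meningeal channel (0.28 without the first, adjusted p = 0.434; 0.42 without the second, adjusted p = 0.208). PRF1 passed in neither state (0.13 in CD3E-positive and -0.12 in CD3E-negative cells). In all, 5 of 6 members were called in CD3E-positive cells, where 21.9% of 8666 genes were (13.3% higher and 8.54% lower), and 4 of 6 in CD3E-negative cells, where 26.1% of 8416 genes were (15.9% higher and 10.2% lower). In CD3E-negative cells these were 2195 genes (1276 or 1154 without the first or second meningeal channel). Without the first splenic channel NKG7 was also called in CD3E-negative cells (0.26, adjusted p = 0.0205) and PRF1 in CD3E-positive cells (0.30, adjusted p = 0.0197). GZMA differed by 0.27 in CD3E-positive (SE 0.092, adjusted p = 0.0432) and 0.515 in CD3E-negative cells (SE 0.111, adjusted p = 0.000932). The GZMA call ended in CD3E-positive cells without the second meningeal channel (0.13, adjusted p = 0.499) and in CD3E-negative cells without the first (0.53, adjusted p = 0.0504) or the second (0.51, adjusted p = 0.0642). The call for GZMA in CD3E-positive cells also ended at folds near the full one with DESeq2 (0.29, adjusted p = 0.144) and without the low-count filter (0.33, adjusted p = 0.0614). It ended at smaller folds with library-size scaling (0.077, adjusted p = 0.568), with a marker gate in place of clusters (0.18, adjusted p = 0.311) and without cells that held UMIs of B-cell marker genes, called B-cell UMIs below (0.13, adjusted p = 0.454). It did not pass in cluster 3 alone (0.475, adjusted p = 0.0696) or cluster 9 alone (0.37, adjusted p = 0.241). In CD3E-negative cells it also ended with library-size scaling (0.225, adjusted p = 0.0744) and in cluster 9 alone (0.19, adjusted p = 0.269). The GZMB call in CD3E-negative cells ended with library-size scaling (0.056, adjusted p = 0.664), the marker gate (0.22, adjusted p = 0.219) and without cells with B-cell UMIs (0.32, adjusted p = 0.104). Counting every setting, also those not named here, the call in CD3E-negative cells ended in 8 for GZMB, at folds from 0.028 to 0.418. For GZMA it ended in 6, at folds from 0.065 to 0.53. Without cluster 2 the GZMK difference was 0.13 in CD3E-positive (adjusted p = 0.448) and 0.002 in CD3E-negative cells (adjusted p = 0.996).

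Within a tissue, members differed little between cells with and without a CD3E UMI. The CD3E-negative cells still held other CD3 transcripts, with a mean of 288 CPM of CD3D and 181 CPM of CD3G in meninges. In spleen the means were 328 and 173 CPM. Of the 702 and 749 CD3E-negative meningeal cells, 355 and 420 had no UMI of CD3D, CD3E or CD3G. In spleen it was 216 and 236 of 335 and 394 cells. The split thus goes by detection of 1 chain and does not separate T from NK cells. In meninges NKG7 was the one member called, with 2003 and 2156 CPM in CD3E-positive cells, against 1801 and 1591 CPM in CD3E-negative cells of the same channels (0.28, SE 0.071, adjusted p = 0.00403). That is 1 of 6 members where 8.49% of 8871 genes were called, 3.37% as higher and 5.12% as lower (753 genes, and 287 or 145 without the first or second meningeal channel). The NKG7 call ended without the first (0.40, adjusted p = 0.131) and without the second meningeal channel (0.15, adjusted p = 0.961), with DESeq2 (0.28, adjusted p = 0.224), with the marker gate (0.27, adjusted p = 0.107), without cells with B-cell UMIs (0.17, adjusted p = 0.311) and without cluster 2 (0.019, adjusted p = 0.921). GZMK had 733 and 753 CPM in CD3E-positive and 817 and 838 CPM in CD3E-negative meningeal cells. Its difference of -0.17 did not pass (adjusted p = 0.149), although it did when the spread was estimated without the first or second splenic channel (adjusted p = 0.0365 and 0.0372), as did CST7 at 0.24 in both (adjusted p = 0.0409 and 0.0382). GZMB had 3504 and 3776 CPM in CD3E-positive and 3719 and 3306 CPM in CD3E-negative meningeal cells, so its channels moved in opposite ways (0.042, adjusted p = 0.821).

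In spleen, 0 of 6 members were called by edgeR, where 0.473% of genes were, 0.214% as higher and 0.259% as lower (42 genes, and 148 without the second splenic channel). At an unadjusted p under 0.05 there were 3 members, NKG7, GZMA and GZMB, beside 9.6% of all genes, and DESeq2 called 0 of the 5 it gave an adjusted p, CST7 having none. GZMB had 2732 and 2721 CPM in CD3E-positive splenic cells, against 3443 and 3303 CPM in CD3E-negative ones, without overlap (-0.25, SE 0.076, adjusted p = 0.158). The call for GZMB was made with library-size scaling (-0.31, adjusted p = 0.00307) and without the first splenic channel (-0.24, adjusted p = 0.0474). The interaction of CD3E state and tissue called 0 members with edgeR, against 0.135% of genes, 0.0676% in each direction (12 genes, 20 without the first meningeal channel, and 29 or 117 without the first or second splenic channel). Its unadjusted p was under 0.05 for PRF1 and GZMB (0.29 for GZMB, adjusted p = 0.395), beside 7.63% of all genes, and DESeq2 called 0 of the 5 members with an adjusted p. Library-size scaling called GZMB (0.36, adjusted p = 0.0468). CD3E-positive cells were deeper in spleen, with a median of 2550 and 2164 UMIs, against 1362 and 1613.5 UMIs in CD3E-negative cells. In meninges the medians were 3841 and 3809.5 UMIs in CD3E-positive and 3433.5 and 3439 UMIs in CD3E-negative cells.

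**Figure D3:**
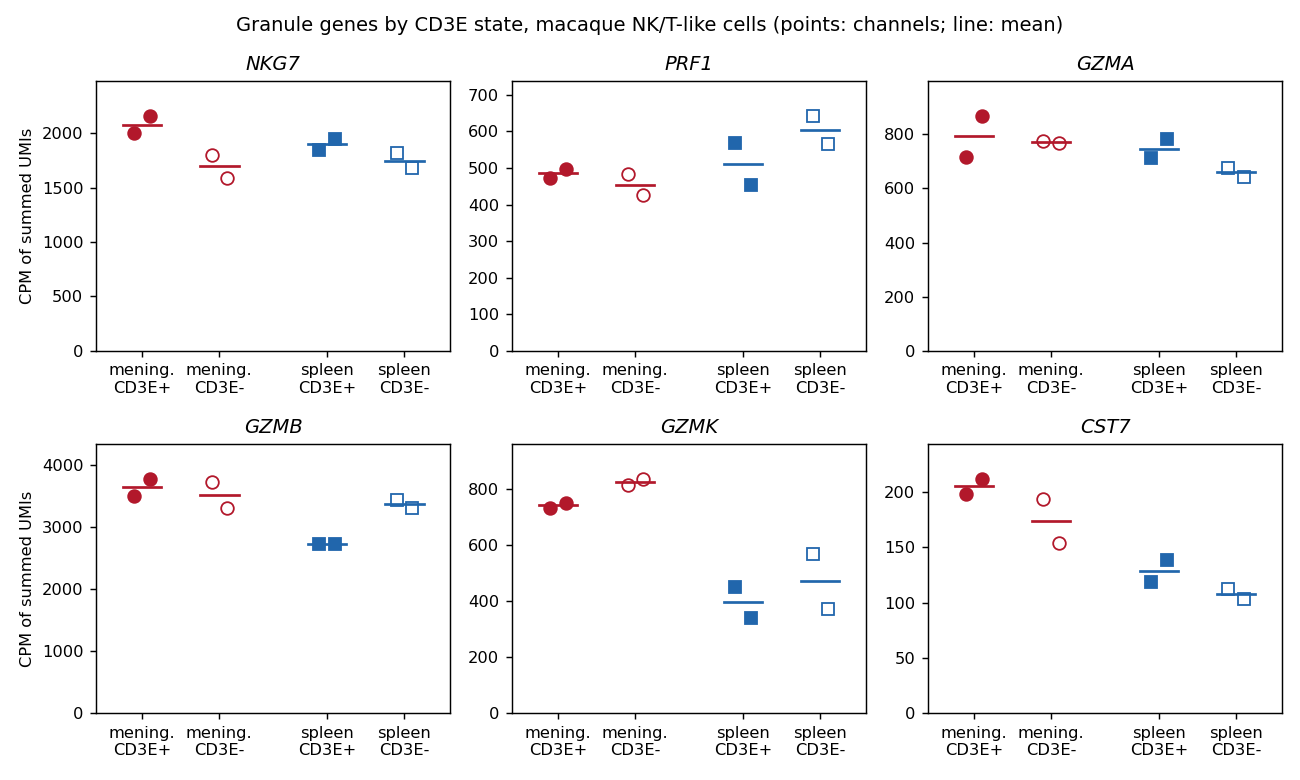
CPM of summed UMIs for the 6 granule genes in macaque NK/T-like cells with (filled) and without (open) a CD3E UMI; points are channels, lines means, meninges in red left of spleen in blue. GZMK is higher in meninges in both states, and GZMB in spleen is lower in CD3E-positive cells (2732 and 2721 CPM) than in CD3E-negative cells (3443 and 3303 CPM).

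The number of members called depended on the CD3 chain that defined the split. With CD3-positive meaning any UMI of CD3D, CD3E or CD3G, 5 members rose in CD3-positive meningeal cells: NKG7 by 0.97, GZMA by 0.83, CST7 by 0.62, PRF1 by 0.53 and GZMB by 0.44 (adjusted p between 1.18e-13 and 4.27e-06 for the 4 other than NKG7). GZMK fell by 0.60 (adjusted p = 7.62e-11). Over all genes that split called 20.8% in meninges, 7.92% as higher and 12.9% as lower, and 2.16% in spleen, 1.02% as higher and 1.13% as lower. In spleen NKG7 rose by 0.45 (adjusted p = 2.36e-05) and GZMA by 0.51 (adjusted p = 0.000646), and GZMK fell by 0.40 (adjusted p = 0.0263). The interaction with tissue passed for NKG7 (0.53, adjusted p = 0.000209) and GZMB (0.45, adjusted p = 0.000628), both larger in meninges, where 2.96% of genes passed (0.537% higher and 2.43% lower). Split by CD3G alone, all 6 members were called in meninges, with GZMA at 0.80 and GZMK at -0.74, and 5 in spleen, all but CST7 (0.64, adjusted p = 0.0626), where 15.8% of genes were called in meninges and 1.17% in spleen. CD3D alone called 1 member in meninges, NKG7 (0.30), and none in spleen, the counts that CD3E gave, where 10.7% and 1.98% of genes were called. The single-chain splits were chosen after seeing the data. CD3G itself followed the clusters, with 391 and 369 CPM in meningeal cluster 9 and 141 and 126 CPM in meningeal cluster 2, whereas CD3D had 478 and 516 CPM in cluster 9 and 456 and 440 CPM in cluster 2.

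Within single clusters GZMA was called higher in CD3E-positive cells of cluster 3 and did not pass in cluster 9. In meningeal cluster 2 GZMA had 521 and 600 CPM in CD3E-positive cells, against 271 and 293 CPM in CD3E-negative cells. In meningeal cluster 9 it had 1020 and 1281 CPM in CD3E-positive and 1499 and 1443 CPM in CD3E-negative cells, a difference that did not pass (-0.34, adjusted p = 0.307). With cluster 2 left out, GZMA was called lower in CD3E-positive meningeal cells (-0.34, adjusted p = 0.00412) and its interaction with tissue passed (-0.60, adjusted p = 0.0319). That fit called 7.66% of 8067 genes in meninges (4.34% higher and 3.32% lower) and 0.161% for the interaction. Cluster 3 alone called GZMA higher in CD3E-positive cells of meninges (0.48, adjusted p = 0.0143) and spleen (0.74, adjusted p = 0.000528). Of 5195 genes that fit called 16% in meninges (9.78% higher and 6.18% lower) and 0.828% in spleen (0.25% higher and 0.577% lower). CD3E-positive cells of cluster 3 were deeper, with medians of 1453.5 and 1128.5 UMIs in meninges, against 758 and 800 in CD3E-negative cells. In spleen the medians were 2493 and 2044 UMIs, against 1001 and 1386. In that cluster CST7 was also called in meninges (0.79, adjusted p = 0.0243) and GZMB was called lower in CD3E-positive cells of spleen (-0.55, adjusted p = 0.00305). GZMK was called higher in CD3E-positive meningeal cells of cluster 9 alone (0.53, adjusted p = 0.0169), where the difference over all clusters was -0.17. Cluster 9 alone called 1.01% of 6416 genes in meninges, 0.67% as higher and 0.343% as lower.

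Most NK/T-like cells of macaque carried several members at once. At 1000 UMIs per cell, 88.5% and 88.4% of meningeal and 93.2% and 88.9% of splenic cells held at least 1 member, a difference of -2.60 percentage points (exact two-sided permutation p = 0.33). At least 2 members were found in 79.8% and 80.4% of meningeal and 80.4% and 76.6% of splenic cells (1.64 points, exact permutation p = 0.667). All 6 were found together in 0.683% and 0.465% of meningeal and 0.298% and 0.202% of splenic cells. In mature B-like cells of macaque at least 1 member was found in 2.52% and 3.55% of meningeal and 2.68% and 1.98% of splenic cells. In cluster 9 the most common number was 3 or 4 members, and fewer than 1% of cells in any channel had none. T-like cells had none in 43.4% and 39.7% of meningeal cells.

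Co-detection of a pair was set against the product of the shares of its genes, so that a ratio of 1 means no association. The ratio cannot exceed 1 divided by the larger share, so ratios of pairs or clusters with unlike shares do not compare in size. Over NK/T-like cells all 10 pairs without GZMK had ratios above 1 in all 4 macaque channels. NKG7 with PRF1 gave 1.20 and 1.26 in meningeal channels and 1.20 and 1.22 in splenic ones, and GZMA with GZMB gave 1.25 in both meningeal channels and 1.19 and 1.25 in spleen. Pairs with GZMK behaved otherwise. PRF1 with GZMK gave 0.848 and 0.912 in meninges and 0.907 and 0.799 in spleen, below 1 in 4 of 4 channels, and GZMB with GZMK gave 0.942 and 0.960 in meningeal and 1.05 in both splenic channels. Cells with GZMB and no GZMK made up 49.1% and 47.7% of meningeal and 55.4% and 56.8% of splenic NK/T-like cells. Cells with GZMK and no GZMB were 10.9% and 10.8% in meninges, against 4.76% and 4.85% in spleen, and cells with both were 23.4% and 25.02% in meninges and 24.1% and 19.8% in spleen.

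The pattern over the sum differed from that within clusters. In meningeal cluster 2 GZMA with GZMK gave ratios of 1.38 and 1.37, above those over all meningeal NK/T-like cells of macaque (0.909 and 0.939), and 21.9% and 22.6% of its cells held GZMK without GZMB. In cluster 9 GZMK without GZMB was found in 0.464% and 0.624% of meningeal and 1.04% and 0.654% of splenic cells. There GZMB with GZMK gave 0.977 and 0.981 in meningeal channels and 0.919 and 0.935 in splenic ones. GZMB was in a mean of 98.9% of meningeal and 98.3% of splenic cells of that cluster, so this ratio could hardly exceed 1. In meningeal T-like cells of macaque all 5 pairs with GZMK were above 1, GZMK with CST7 reaching 2.76 and 2.83. The ratios are descriptions over cells of one library, which share depth and free RNA, with no test. By CD3E state, PRF1 with GZMK gave 0.886 and 0.971 in CD3E-positive and 0.778 and 0.813 in CD3E-negative meningeal cells.

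**Figure D4:**
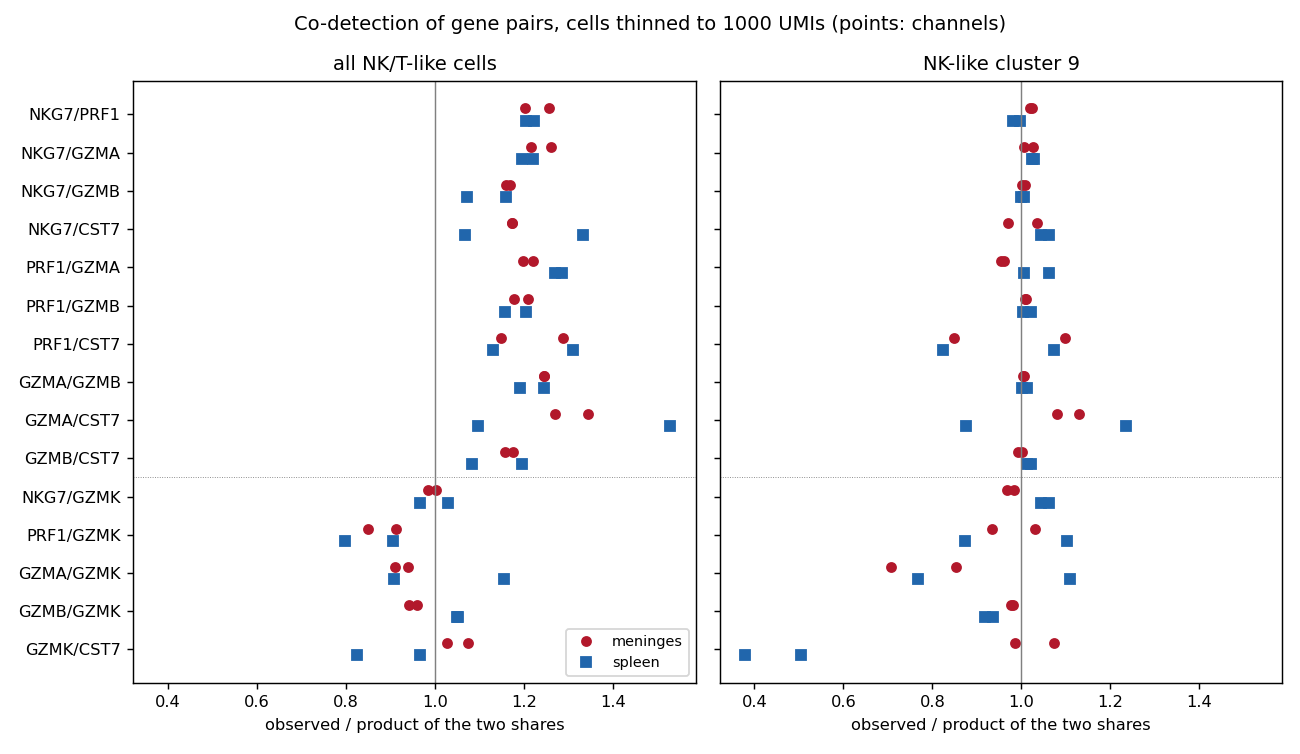
Ratio of observed co-detection to the product of the 2 shares for 15 gene pairs (rows) in all macaque NK/T-like cells and in NK-like cluster 9, cells thinned to 1000 UMIs; points are channels (meninges red, spleen blue) and the grey line marks 1. Pairs without GZMK lie right of 1 over all NK/T-like cells, and PRF1/GZMK lies left of it in 4 of 4 channels.

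Other genes of the granule pathway also differed between tissues in NK/T-like cells. The sums hold cluster 2, which had meningeal cells only and XCL1 and ID2 among its leading genes. Values without cluster 2 or within single clusters are not given for these lists. Differences in cluster mix and differences within like cells are therefore not told apart. Over all genes 19.5% were called higher and 14.9% lower in meninges, and the lists below are short, so several lie not far from that. Of the other granule proteins 8 of 10 were tested, and 5 were higher and 1 lower in meninges, with a list median of 0.378. SRGN, the proteoglycan that packs granule content, rose by 1.74 (SE 0.082), the death ligands FASLG by 1.43 (SE 0.297) and TNFSF10 by 1.08 (SE 0.129). Of the processing and protection genes 4 rose and 1 fell of 8: SERPINB9, the inhibitor of granzyme B, rose by 1.42 (SE 0.112), CALR, a chaperone, by 0.65, and the cathepsin CTSH fell by 1.37 (SE 0.231). Of 12 transport and release genes 3 rose and 4 fell, with STX11, a syntaxin of granule fusion, at 1.49 (SE 0.133), LYST, which controls the size of lysosome-related organelles, at -1.08 (SE 0.081) and STX7 at -0.56. Secreted effectors rose in 4 of 5 tested, with XCL1 at 2.59 and IFNG at 1.69, and killer receptors were split, 4 higher and 4 lower of 11 tested. Of the cytotoxic regulators 7 rose and 1 fell of 9 tested, with BHLHE40 at 2.23, NFIL3 at 2.23 and ID2 at 1.66. Their median was 0.645, beside -0.012 over all genes. All these named changes had an edgeR adjusted p of 0.00562 or less.

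Between CD3E states GZMM, a granzyme that cuts after methionine, changed where most members did not. It rose in CD3E-positive cells by 1.13 in meninges (SE 0.083, adjusted p = 9.46e-17) and by 0.72 in spleen (SE 0.105, adjusted p = 5.57e-06). In meninges TNFSF10 fell in CD3E-positive cells by 1.43 (SE 0.108), SERPINB6, a protease inhibitor, by 0.57 and the regulator EOMES by 0.54, and SERPINB9 rose by 0.45. XCL1, a chemokine, fell by 2.45 in meningeal CD3E-positive cells, and its interaction with tissue passed (-2.15, SE 0.199, adjusted p = 2.22e-11). XCL1 is the leading gene of cluster 2, which had meningeal cells only, and its values without that cluster are not given. Genes most like the mean of the 6 members over 22 class-by-channel profiles of macaque, by Pearson r of log2(CPM + 1), were KLRF1 (0.988), CX3CR1 (0.982), PPP2R2B (0.980), SLA2 (0.980), HOPX (0.978), CMA1 (0.977), SLFN12L (0.976) and JAKMIP1 (0.973). The profiles share channels and depth, and the values are descriptions.

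In mouse meninges Nkg7 was high in NK-like and T-like cells, Gzma in NK-like cells, and all members were low in innate lymphoid-like cells. The mouse library is 1 sample, so its intervals cover counting error only and no test was made. Of 13267 kept cells, 518 were NK-like, 1349 T-like and 331 innate lymphoid-like, and 3772 mature B-like cells gave the background, with 10.1 CPM of Nkg7 and at most 1.56 CPM of any other member. NK-like cells had 1538 CPM of Nkg7 (95% exact Poisson interval 1506 to 1570), 573 CPM of Gzma (554 to 593), 412 CPM of Gzmb (396 to 429), 116 CPM of Prf1 (107 to 125) and 105.5 CPM of Cst7 (97.3 to 114). Gzmk was low in them, at 8.95 CPM (6.69 to 11.7). T-like cells of mouse had 1217 CPM of Nkg7 (1197 to 1237), 100 CPM of Gzmb (94.6 to 106) and 9.12 CPM of Gzma (7.47 to 11.02).

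Mouse NK-like cells with and without a Cd3e UMI differed in granule content, a split that goes with their clusters. At Leiden resolution 2, looked at after the values were seen, 164 of these cells fell in cluster 30, with T markers second and 163 of them Cd3e-positive, and 352 in cluster 3, with 83 Cd3e-positive. Gzma had 123 CPM (111 to 137) in the 248 Cd3e-positive NK-like cells, against 1013 CPM (977 to 1050) in the 270 Cd3e-negative ones. Gzmb had 284 CPM (265 to 304) in Cd3e-positive cells and 538 CPM (512 to 565) in Cd3e-negative cells, and Prf1 had 54.0 CPM (45.8 to 63.2) in Cd3e-positive and 176 CPM (161 to 192) in Cd3e-negative cells. Cst7 had 107 CPM (95 to 119) in Cd3e-positive and 104.5 CPM (93.1 to 117) in Cd3e-negative cells, intervals that overlap. Nkg7 had 1326 CPM (1285 to 1369) in Cd3e-positive and 1745 CPM (1697 to 1793) in Cd3e-negative cells. Gzmc, a granzyme of the mouse Gzmb cluster, had 68.3 CPM (59.1 to 78.6) in Cd3e-positive and 321 CPM (301 to 342) in Cd3e-negative NK-like cells, and Gzmd, Gzme, Gzmg and Gzmn had 0 UMIs. Within cluster 3 alone Gzma had 317 CPM (283 to 354) in Cd3e-positive and 1013 CPM (977 to 1051) in Cd3e-negative cells, and Prf1 had 80.3 CPM (63.8 to 99.8) in Cd3e-positive and 176.5 CPM (162 to 192) in Cd3e-negative cells. Gzmb went the other way there, with 692 CPM (641 to 745) in Cd3e-positive and 539 CPM (512 to 566) in Cd3e-negative cells. The Cd3e-positive cells of cluster 30 had 17.9 CPM of Gzma (12.3 to 25.2) and 63.05 CPM of Gzmb (52.1 to 75.6). The median depth was 10118 UMIs in Cd3e-positive and 9494 UMIs in Cd3e-negative cells.

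Gzmk in the mouse library was highest in T-like cells. In T-like cluster 11, led by Cd8b1 and Cd8a, Gzmk had 57.3 CPM (52.5 to 62.4) over 1015 cells, against 3.04 CPM (1.31 to 6.00) in the 334 cells of T-like cluster 5, led by Ly6c2 and Trac. Clusters 11 and 5 were closer for other members, with 1213 and 1229 CPM of Nkg7, 95.6 and 116 CPM of Gzmb and 46.4 and 44.5 CPM of Prf1, while Cst7 had 95.9 CPM in cluster 11 and 55.2 CPM in cluster 5. Clusters named T-like at Leiden resolution 2 were unlike. Of these, 487 cells were led by Tnfrsf4, Ctla4 and Cd4, 411 by Cd8b1 and Cd8a, and 116 by Dapl1. Levels of cluster 11 may thus be averages over unlike T-like cells, and members were not split among them. Innate lymphoid-like cells, with Il1rl1 and Gata3 among their leading genes, had 34.7 CPM of Nkg7 (28.3 to 42.1), 6.401 CPM of Cst7, 3.37 CPM of Gzmb and 3.03 CPM of Prf1, and Gzmk was at 0 UMIs, a count that does not show absence. The 17 Cd3e-positive cells among them had 189 CPM of Nkg7 (129 to 267), against 25.4 CPM (19.8 to 32.0) in the 314 Cd3e-negative ones.

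**Figure D5:**
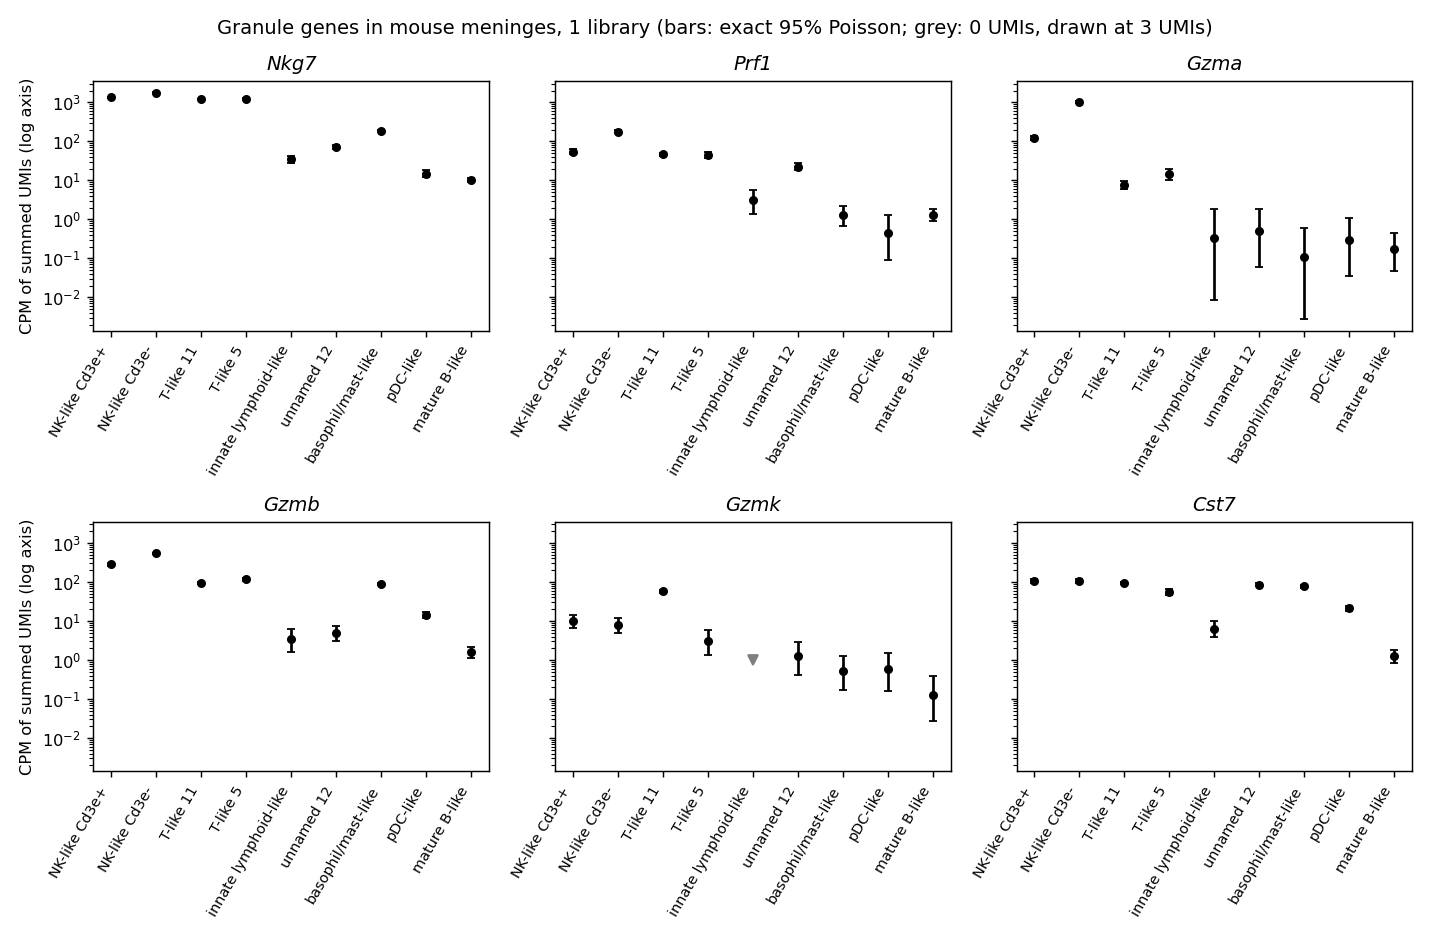
CPM of summed UMIs (log axis) for the 6 granule genes in cell classes of the 1 mouse meningeal library; bars are exact 95% Poisson intervals and a grey triangle marks 0 UMIs, drawn at the level of 3 UMIs. Gzma and Prf1 are higher in Cd3e-negative than in Cd3e-positive NK-like cells, and Gzmk is highest in T-like cluster 11.

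Members were also counted per mouse cell. Thinned to 1000 UMIs, 48.1% of mouse NK-like cells had exactly 1 member, 33.0% had at least 2 and 18.9% had none. Nkg7 was found in 74.1%, Gzmb in 16.02%, Gzma in 13.5% and Prf1 in 10.4% of them. Gzma was found in 3.63% of Cd3e-positive NK-like cells and in 22.6% of Cd3e-negative ones. Of mouse T-like cells 39.4% and of innate lymphoid-like cells 95.2% had no member, against 98.7% of mature B-like cells. Among mouse NK-like cells the ratio of observed to product was 1.64 for Prf1 with Gzma and 1.16 for Gzma with Gzmb. The 2 species differ in the sort, the number of cells loaded and the depth, and no difference between them was tested.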

How the data were processed

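The deposited tables hold UMI counts per gene and cell barcode. The authors made these counts with Cell Ranger, and mm10 is the build named for all libraries, per the submitters' processing notes. No source used here names the reference to which macaque reads were mapped. Each macaque table lists genes seen in at least 3 cells, and a gene missing from a channel was counted as 0.

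Cells needed at least 300 genes and no more than 10% of UMIs from mitochondrial genes. Scrublet marked 39 doublets in each meningeal channel and 173 in mouse, which were removed, and 0 in spleen, where it had not worked and was not used. This left 4029, 4269, 5839, 6783 and 13267 cells. Cells were clustered (scanpy 1.11.5, 2000 variable genes, 30 components, 15 neighbours, Leiden resolution 1) without members, CD3, antigen receptor, ribosomal, mitochondrial or cycle genes. A cluster was named from fixed marker lists where it scored 0.3 or more with at least 3 markers and a lead of 0.25 (between NK, T and innate lymphoid names no lead was required), limits set with the data known. The members and lists were chosen with earlier results of these data known.

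Counts were summed per channel and class and tested by edgeR 4.0.16 (quasi-likelihood, TMM, filterByExpr, adjusted p under 0.05). Tissue fits compared 2 meningeal with 2 splenic channels, and CD3E fits took the channel as a block, since both states come from one library. Classes with under 50 cells in a channel were not tested. An exception was the CD3E split of cluster 9, fitted with 46 CD3E-positive cells in the first splenic channel. DESeq2 1.42.0 and the other settings are in the closing section. On simulated data 2-fold changes were recovered in 68% of cases for tissue over NK/T-like cells, 59.5% in CD3E-positive and 60% in CD3E-negative cells, and in 74%, 41% and 32.5% for CD3E state in meninges, in spleen and by tissue. Intervals cover counting error only. Named genes were the 6 members, up to 3 genes per list and comparison with the largest called change at a mean log2 CPM of at least 3, and the 8 genes most like the members, with CD3E and MS4A1 as checks. CD3D and CD3G levels and the cluster values were chosen after their values were seen. One B-cell marker gene is not reported here.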

Additional observations from a re-analysis of the deposited data

Results flagged for a closer look

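The values below lie in cells that the comparisons do not use, and in each library with at least 50 such cells the lower bound of their Poisson interval was over 5 times the upper bound in mature B-like cells. GZMB had 860.0 and 838.3 CPM in meningeal cells of macaque cluster 5, which is macrophage- or monocyte-like. Those GZMB UMIs came mostly from 11 of its 154 cells, which held at least 3 GZMB UMIs each and 963 in all (7268 CPM), whereas the other 143 cells had 7.9 CPM. In a comparison of these cells made after seeing their values, the 11 cells had 928 CPM of TCF4 and 3298 CPM of IRF8, against 76.3 and 579 CPM in the other cells, and 60.4 CPM of C1QB, against 1010 CPM.

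In mouse cluster 10, which is basophil- or mast-like, Nkg7 had 188.8 CPM, Gzmb 88.79 CPM and Cst7 76.86 CPM. In unnamed mouse cluster 12, led by Cd163l1, Trdc and Il17a, Nkg7 had 70.58 CPM, Prf1 22.29 CPM and Cst7 85.44 CPM. In plasmacytoid dendritic-like mouse cluster 15 Gzmb had 14.32 CPM and Cst7 20.9 CPM. What these cells are was not tested further.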

How the results depend on the processing

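The member results were recomputed under each setting, changing 1 choice at a time, except that the stricter cell filter set both of its limits together and the cells were then clustered again. Of the log2 fold changes of members, 601 kept their direction and side of the threshold, 50 no longer passed, 39 newly passed and 66 changed sign. Of the counts of called genes and the share differences between tissues, 92 were kept and 48, all of them gene counts, were not. A count was kept within 1.5 times the value reported, and a share difference if its sign stayed the same, whatever its size. The cause of these changes was not tested, and the fits to single clusters or without cluster 2, CD3D or CD3G alone were chosen after seeing the data. Leaving out each channel, called genes ranged from 2215 to 3017 by tissue over NK/T-like cells (3306 in full), from 1154 to 1825 in CD3E-negative cells (2195), from 145 to 1089 for CD3E state in meninges (753), from 31 to 148 in spleen (42) and from 11 to 117 for CD3E state by tissue (12). In those fits PRF1 ranged from -0.068 to 0.109 by tissue over NK/T-like cells, from -0.024 to 0.296 in CD3E-positive cells and from -0.038 to 0.139 in NK-like cells. For CD3E state in meninges PRF1 ranged from -0.032 to 0.186, GZMA from -0.115 to 0.137 and GZMB from -0.088 to 0.151. For CD3E state by tissue NKG7 ranged from -0.031 to 0.215, GZMK from -0.077 to 0.048 and CST7 from -0.297 to 0.087.

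Same-numbered channels of the 2 tissues share only a number, with deviations correlated at -0.055. A replicate block on that number called 2943 genes by tissue over NK/T-like cells, 2126 in CD3E-negative, 1464 in CD3E-positive and 2874 in NK-like cells, and it changed no member's call. For CD3E state, where each channel gives both states, no replicate block called 574 genes in meninges, 16 in spleen and 5 by tissue.

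DESeq2 called 1444 genes by tissue over NK/T-like cells, 807 in CD3E-negative, 807 in CD3E-positive and 1438 in NK-like cells. It called 72 for CD3E state in meninges, 25 in spleen and 6 by tissue, where GZMK was at -0.025. Without the low-count filter 1305 genes were called in CD3E-negative cells by tissue. Library-size scaling put PRF1 at -0.253 over NK/T-like, -0.065 in CD3E-positive and -0.235 in NK-like cells by tissue, and NKG7 at -0.045 in CD3E-negative cells. The stricter cell filter called 21 genes for CD3E state in spleen and put GZMA at -0.008 in meninges. At Leiden resolution 0.5 GZMK by tissue in NK-like cells was -0.001.

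The marker gate called 1081 genes in CD3E-negative cells by tissue, and 440, 22 and 0 for CD3E state in meninges, in spleen and by tissue. It put PRF1 at -0.063 by tissue, GZMA at -0.009 and GZMK at 0.01 for CD3E state in meninges, and CST7 at 0.039 by tissue. Without cells with B-cell UMIs the counts were 1440 in CD3E-negative cells, and 468, 20 and 5 for CD3E state in meninges, in spleen and by tissue. PRF1 was then -0.019 by tissue over NK/T-like and -0.003 in NK-like cells, PRF1, GZMA and GZMB were -0.019, -0.111 and -0.026 for CD3E state in meninges, and NKG7 was -0.012 by tissue.

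With any CD3 chain 1704, 177 and 243 genes were called for CD3 state in meninges, in spleen and by tissue. NKG7 was then -0.20 in CD3-negative cells between tissues, PRF1 0.179 for CD3 state in spleen, and GZMA, GZMK and CST7 were 0.314, -0.207 and 0.243 by tissue. With CD3G alone the counts were 1445, 107 and 172. PRF1 was -0.051 in CD3G-positive cells between tissues, PRF1 and GZMB were 0.347 and 0.34 for CD3G state in spleen, and GZMA and GZMK 0.198 and -0.138 by tissue. With CD3D alone 174 genes were called in spleen and 27 by tissue, and GZMB and GZMK were -0.098 and 0.076 in meninges.

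Without cluster 2 the count in CD3E-negative cells was 948, with PRF1 at 0.311, and GZMK in NK-like cells was -0.072. For CD3E state PRF1, GZMA and GZMB were then -0.182, -0.338 and -0.095 in meninges, and NKG7 and PRF1 -0.173 and -0.011 by tissue. Cluster 3 alone called 603 genes by tissue, 721 in CD3E-negative and 141 in CD3E-positive cells, and 119 for CD3E state by tissue. There PRF1 was 0.082 in CD3E-negative cells, PRF1 and GZMB were -0.14 and -0.204 for CD3E state in meninges, and GZMK and CST7 -0.209 and 0.623 by tissue. Cluster 9 alone called 1157 genes by tissue, 387 in CD3E-negative and 473 in CD3E-positive cells, and 65, 2 and 0 for CD3E state in meninges, in spleen and by tissue. There PRF1 was -0.381 by tissue and -0.384 in CD3E-positive cells, where NKG7 was -0.001. For CD3E state in cluster 9 PRF1, GZMA, GZMB and GZMK were -0.202, -0.336, -0.072 and 0.529 in meninges, GZMA and GZMK were -0.489 and 0.274 in spleen, and NKG7, PRF1, GZMA and GZMB were -0.098, -0.08, 0.153 and 0.0 by tissue.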
